A study of Homo sapiens with 3 samples.

Results

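Genes of PDGF and VEGF signalling were followed through the first days of a human stem cell culture: the receptors PDGFRA, PDGFRB, KDR and FLT1 and the ligands PDGFA and VEGFA. They were chosen by symbol, 6 of the 36601 genes in the deposited counts, and all 6 were present. The cells were of the established embryonic stem cell line UCLA1, of human origin, grown in a culture named GiMO beneath a Geltrex overlay, a basement membrane extract. They were taken after 1, 2 or 3 days, with 1 droplet library of the 10x Genomics platform per day, and only 1 line and genotype was used. The title of the series concerns a BMP4 response, and the labels used here do not say whether or when BMP4 was added. With 1 library per day there is no replicate check, so no p-value is given, every interval is a 95% interval for counting error only, and day, library and batch cannot be told apart.

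PDGF receptors and VEGF receptors are related receptor tyrosine kinases that dimerise when a secreted ligand bridges them. PDGF-AA, the dimer made from PDGFA, signals through PDGFRA, and in early embryos the ligand is typically made by epithelial cells while the receptor sits on the mesoderm beneath them. VEGFA binds KDR, the main signalling receptor of the endothelial lineage, and FLT1, which binds it tightly, signals weakly and is also made as a soluble trap. KDR and PDGFRA are widely used as surface markers that separate mesoderm subsets in pluripotent stem cell cultures. Gene-level counts do not separate soluble from membrane FLT1, or the splice forms of VEGFA.

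On hg38 with GENCODE release 44, PDGFRA lies on chromosome 4 at 54229280 to 54298245 on the plus strand and KDR at 55078481 to 55125595 on the minus strand of the same chromosome. The stretch from PDGFRA to KDR spans 896 kb and holds 11 of the counted genes, with KIT, a related receptor, between them at 54657267 to 54740783. Of the other 8, ENSG00000250646, a long noncoding RNA that overlaps KDR on the opposite strand, had 14, 76 and 128 UMIs (unique molecular identifiers, one per counted RNA molecule) at days 1, 2 and 3, LINC02260 had 2 at day 3, and the remaining 6 had none. PDGFRB lies on chromosome 5 at 150113839 to 150155872 (minus), FLT1 on chromosome 13 at 28300346 to 28495145 (minus), PDGFA on chromosome 7 at 497258 to 520296 (minus) and VEGFA on chromosome 6 at 43770184 to 43786487 (plus). The identifiers are ENSG00000134853 (PDGFRA), ENSG00000113721 (PDGFRB), ENSG00000128052 (KDR), ENSG00000102755 (FLT1), ENSG00000197461 (PDGFA) and ENSG00000112715 (VEGFA). ENSG00000272114, opposite to VEGFA, had 15, 10 and 5 UMIs.

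The bases just before the annotated start are shown for the 3 members whose levels moved most between days 1 and 3, PDGFRA, PDGFA and KDR. They come from the RefSeq promoter windows on GRCh38.p14, which held 5 of the 6 members, and stop at the gene's first annotated base. Each is written 5′ to 3′ on the gene's own strand: chr4:54229043-54229279 for PDGFRA, chr7:520297-520476 for PDGFA and chr4:55125596-55125845 for KDR. Capitals mark matches to CANNTG, the E-box letters read by basic helix-loop-helix factors such as MESP1. The motif reads the same on both strands.
PDGFRA: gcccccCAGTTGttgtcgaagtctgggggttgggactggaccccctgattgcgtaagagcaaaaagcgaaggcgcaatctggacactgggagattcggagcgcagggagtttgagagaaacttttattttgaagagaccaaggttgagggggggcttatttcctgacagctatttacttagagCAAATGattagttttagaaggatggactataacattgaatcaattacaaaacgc
PDGFA: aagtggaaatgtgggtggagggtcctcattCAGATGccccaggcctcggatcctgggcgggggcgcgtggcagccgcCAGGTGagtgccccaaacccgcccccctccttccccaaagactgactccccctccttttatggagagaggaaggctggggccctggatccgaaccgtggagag
KDR: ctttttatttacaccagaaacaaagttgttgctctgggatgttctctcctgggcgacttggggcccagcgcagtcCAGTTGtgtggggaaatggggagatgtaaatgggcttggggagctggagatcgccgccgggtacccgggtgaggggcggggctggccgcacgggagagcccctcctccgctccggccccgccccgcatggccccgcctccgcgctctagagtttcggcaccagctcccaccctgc
The windows of 237, 180 and 250 bases held 2, 2 and 1 matches. Such a match was present in 60.2%, 51.1% and 61.8% of 35116 promoter windows cut to the same lengths. GC content was 46.4% before PDGFRA, 65% before PDGFA and 65.2% before KDR, against medians of 57.8%, 56.7% and 58% over all windows.

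The kept cells numbered 3533, 7224 and 6804 at days 1, 2 and 3, with 165813128, 119744389 and 137684818 UMIs and medians of 41595, 15642 and 19227 UMIs per cell. Libraries shared 5 to 10 kept barcodes per pair. Shares and comparisons between cells were therefore made after each cell had been thinned at random to 5000 UMIs. Levels are in CPM, a gene's UMIs divided by all UMIs of the cells summed and scaled as is usual for this unit, read between days or between cells for 1 gene at a time and not between genes. POU5F1, a defining gene of the pluripotent state, stood at 1172, 1034 and 397 CPM. A difference was called when it reached 1.5-fold, its interval excluded 1 and the higher group had at least 2 CPM. In summed counts, fewer cells with a transcript and fewer copies per cell cannot be told apart.

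All 4 receptors were higher at day 3 than at day 1, and the PDGF ligand was lower. PDGFRA was 17.4-fold (16.1 to 18.7) higher, KDR 3.53-fold (3.39 to 3.67), PDGFRB 2.40-fold (2.18 to 2.65) and FLT1 1.56-fold (1.52 to 1.59). PDGFA was 7.90-fold (7.402 to 8.44) lower. VEGFA, at a ratio of 0.81, was not called. Over all 14587 genes tested, 32.2% were called higher and 17.9% lower between these libraries. The median log2 ratio of all genes was 0.25, which other scalings move to -0.06 (TMM) or -0.03 (median of ratios). Calls of all genes shift with it: 4690 higher and 2610 lower become 2944 and 4127 under TMM, and for day 2 over day 1 3050 and 807 become 1295 and 2428. Under the other scalings FLT1 stood at 1.26-fold and 1.29-fold and was no longer called, and under TMM VEGFA was called lower at a ratio of 0.66.

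**Figure D1:**
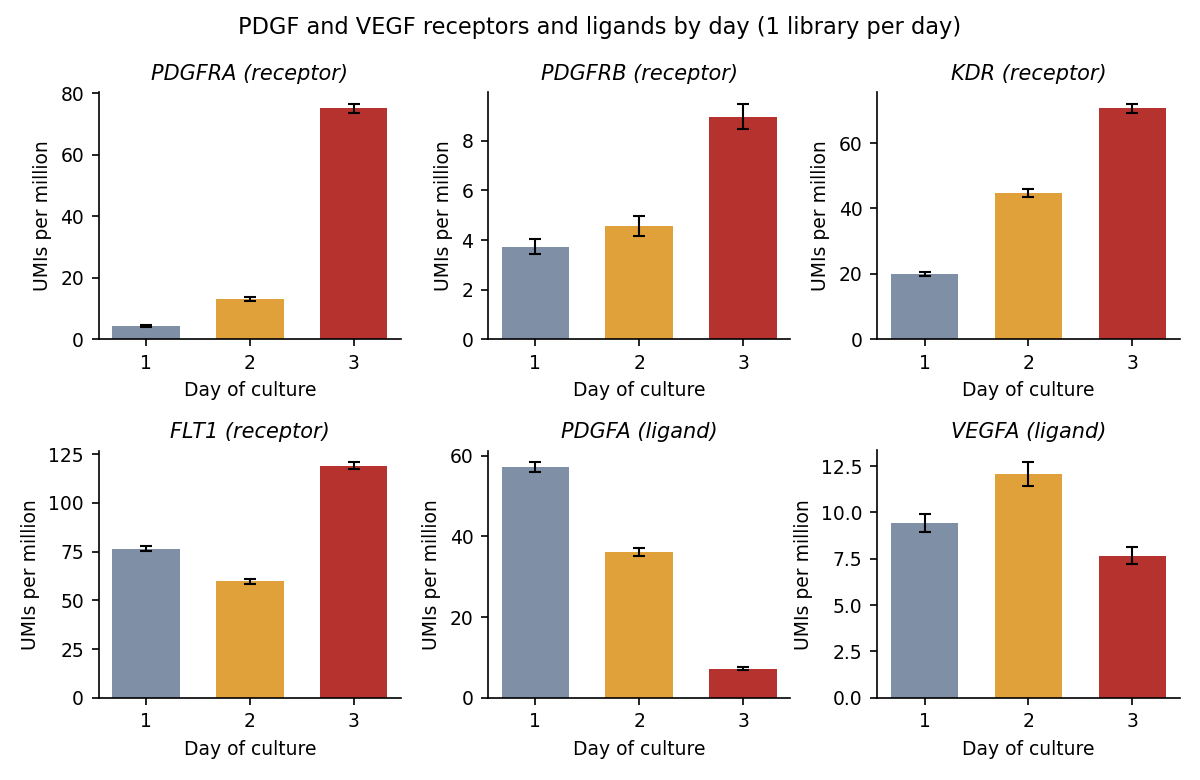
Level of each receptor and ligand in the 3 libraries, in CPM (vertical axes start at 0 and differ between panels); bars are library totals over kept cells and error bars are exact Poisson 95% intervals. PDGFRA climbs from 4.33 to 75.1 and PDGFA drops from 57.2 to 7.23, while FLT1 is lowest and VEGFA highest at day 2.

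PDGFRA had 718 UMIs or 4.33 CPM at day 1, 1581 UMIs or 13.2 CPM at day 2 and 10346 UMIs or 75.1 CPM at day 3. It was 3.05-fold (2.79 to 3.33) higher at day 2 than at day 1 and 5.69-fold (5.40 to 6.004) higher at day 3 than at day 2. At day 2 over day 1, PDGFRA and KDR were the 2 members called higher and PDGFA the 1 called lower, where 21.4% of 14240 genes were called higher and 5.67% lower. At day 3 over day 2, all 4 receptors were called higher and both ligands lower, where 14.1% of 14668 genes were called higher and 16.7% lower. The share of cells with a PDGFRA UMI was 2.20%, 5.80% and 27.5% at days 1 to 3 after thinning, and 16.3%, 13.3% and 56.5% in the unthinned cells, whose depth differs between days. At day 2 the transcript was uneven among cells. At 10000 UMIs per cell, 2.47% of cells had at least 2 PDGFRA UMIs, where a single level in every cell would give 0.84%.

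At day 2 PDGFRA was concentrated in cells with mesoderm genes. PDGFRA stood at 47.4 CPM in the 1303 cells with a UMI of MESP1, a transcription factor of nascent mesoderm, and at 6.03 CPM in the 5439 cells without, a 7.86-fold (6.49 to 9.56) difference. It was also higher with LHX1 (5.37-fold), HAND1 (4.38-fold) and TBXT, the primitive streak gene (2.30-fold), and 2.93-fold lower with SOX2, a pluripotency gene. Among the 14490 genes tested against MESP1, 6.04% were called higher and 9.84% lower, against LHX1 6.49% and 7.5%, against TBXT 3.23% and 4.89%, and against SOX2 3.03% and 5.78%. The 1726 cells with SOX2 and without MESP1 serve as a measure of PDGFRA UMIs where little is expected: 2.26% of them had one, at a median of 16571.5 UMIs per cell before thinning, against 19.4% of the 1207 cells with MESP1 and without SOX2, at a median of 15869.

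At day 3 PDGFRA was no longer called between cells with and without MESP1. It stood at 84.1 CPM in cells with MESP1 and 60.5 CPM in cells without, a ratio of 1.39 (1.28 to 1.52). Of the markers compared, LHX1, a gene of early mesoderm, had the highest ratio at day 3: 98.2 CPM in the 4265 cells with it and 34.9 CPM in the 2410 without, 2.81-fold (2.53 to 3.13) higher. HAND1 gave a ratio of 1.34 and TBXT 1.08, neither called. Of all genes tested at day 3, 6.38% were called higher and 14% lower with LHX1, 2.1% and 10.5% with MESP1, and 4.02% and 4.51% with TBXT. PDGFRA was 3.86-fold (2.29 to 7.06) lower in the 141 cells with SOX2, 2.87-fold (1.99 to 4.29) lower in the 216 cells with SOX17, an endoderm and germ cell gene, and 2.10-fold (1.54 to 2.95) lower in the 219 cells with TFAP2A, an amnion and surface ectoderm gene. Whether the ratio with MESP1 differed between day 2 and day 3 was not tested, since each day is 1 library.

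Gene lists, which hold some of these markers, were also read in PDGFRA cells. At day 2 all 8 measured genes of the nascent mesoderm list were higher in the 391 cells with a PDGFRA UMI than in the 6351 without, with a median log2 ratio of 2.44 against 0.03 for all genes, where 6.58% of 15024 genes were called higher and 4.73% lower. They included LHX1 (149 against 22.0 CPM), GATA6 (262 against 41.7 CPM) and APLNR, the apelin receptor (87.0 against 14.5 CPM). Of the lateral plate list 6 of 7 and of the paraxial list 5 of 7 measured genes were higher, and 4 of 9 pluripotency genes were lower. HAND1 of the nascent mesoderm list is also in the lateral plate list, and MESP2 also in the paraxial list. Of the hypoblast and endoderm list 2 of 3 measured genes were higher, GATA4 (51.2 against 13.7 CPM) and HHEX (5.12 against 0.57 CPM). SOX17 was not called (7.16 against 6.61 CPM). GATA4 is also in the lateral plate list and counts in both, so of this list's called genes HHEX alone was outside the mesoderm lists. The endoderm list's median log2 ratio of 1.90, beside 1.81 for the lateral plate list, was that of GATA4. Of the streak list 4 of 8 and of the hemato-endothelial list 2 of 7 measured genes were higher, and none of either was lower. At day 3, 1 of 8 nascent mesoderm genes was higher (LHX1, 911 against 565 CPM) and 6 of 8 amnion genes were lower, among them HPGD (7.73 against 51.4 CPM) and WNT6 (1.31 against 5.58 CPM), where 2.74% of 14229 genes were called higher and 5.45% lower.

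PDGFA ran the other way. It had 57.2 CPM at day 1, 36.1 CPM at day 2 and 7.23 CPM at day 3. It was 1.58-fold (1.53 to 1.64) lower at day 2 than at day 1 and 4.99-fold (4.65 to 5.35) lower at day 3 than at day 2. The share of cells with a PDGFA UMI was 22.8%, 15.9% and 3.37% after thinning (79.5%, 38.1% and 10.4% before it). At day 3 the remaining PDGFA was uneven: 0.91% of cells had at least 2 UMIs at 10000 UMIs per cell, where a single level would give 0.25%.

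From day 2 the ligand was lower in the cells that held its receptor. At day 1, PDGFA stood at 59.7 CPM in the 77 cells with a PDGFRA UMI and at 54.4 CPM in the 3422 without, a ratio of 1.098 (0.69 to 1.66), where 1.91% of 15046 genes were called higher and 1.12% lower. At day 2 it stood at 16.9 CPM in the 391 cells with PDGFRA and 37.5 CPM in the rest, 2.22-fold (1.57 to 3.25) lower. At day 3 it stood at 3.92 CPM in 1837 cells with PDGFRA and 9.01 CPM in 4838 without, 2.30-fold (1.61 to 3.37) lower. Read the other way, PDGFRA stood at 6.15 against 15.5 CPM in cells with and without PDGFA at day 2 (2.52-fold lower), where 0.877% of 14475 genes were called higher and 2.43% lower, and at 45.3 against 76.4 CPM at day 3 (1.69-fold lower). At day 1, when 0.853% were called higher and 0.831% lower in PDGFA cells, PDGFRA was not called. In shares, 7.42% of PDGFRA cells and 16.4% of the others had a PDGFA UMI at day 2, and 1.96% and 3.91% at day 3. The median depth before thinning was 16329 against 16125 UMIs at day 2 and 20011 against 19175.5 UMIs at day 3.

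At day 2 the difference was not called once cells were split by MESP1. Within cells with a MESP1 UMI the ratio was 0.57 (0.27 to 1.06), and within cells without one it was 0.72 (0.45 to 1.095). At day 3 both were still called lower, at 0.56 (0.31 to 0.94) and 0.45 (0.26 to 0.74). Leaving out every cell with a SOX2 UMI, a comparison added after the data had been seen, gave 0.43 at day 2 and 0.49 at day 3, both called. Grouped by the number of PDGFRA UMIs at 10000 UMIs per cell, day 3 cells had 9.96, 3.70, 2.57 and 4.52 CPM of PDGFA with 0, 1, 2 and at least 3 UMIs. The drop lay between 0 and 1 UMI, and the intervals of the other 3 steps overlapped. CDH1, the epithelial cadherin, stood at 40.2, 15.8, 13.6 and 11.0 CPM over the same steps.

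**Figure D2:**
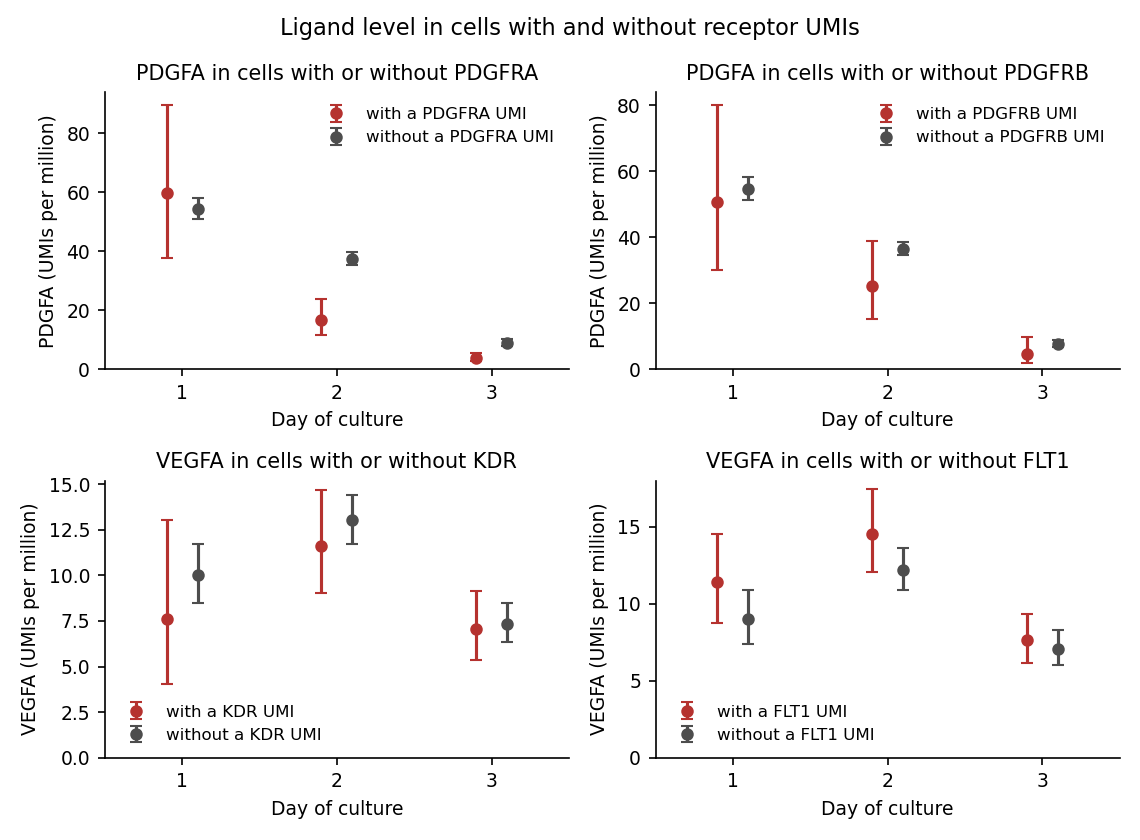
Level of PDGFA in thinned cells with (red) and without (grey) a UMI of PDGFRA or PDGFRB, and of VEGFA with and without KDR or FLT1. Levels are by day, in CPM (vertical axes start at 0), and points are sums over the cells of 1 library with exact Poisson 95% intervals. PDGFA is lower in PDGFRA cells at days 2 and 3 (16.9 against 37.5 and 3.92 against 9.01). The intervals of VEGFA with and without KDR or FLT1 overlap on each day.

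At day 3 PDGFA was highest in the few cells with SOX2 or TFAP2A. PDGFA stood at 39.7 CPM in the 141 cells with SOX2 (28 UMIs) and 6.92 CPM in the other 6534, 5.74-fold (3.73 to 8.52) higher, where 13.3% of 15113 genes were called higher and 6.93% lower. Most of its UMIs, 226, lay outside the SOX2 cells. In the 219 cells with TFAP2A it stood at 21.9 CPM (24 UMIs) against 7.13 CPM, 3.08-fold (1.93 to 4.69) higher, where 9.66% of 14697 genes were called higher and 5.59% lower. It was 4.65-fold (3.51 to 6.22) lower in cells with LHX1, 3.12-fold (2.40 to 4.08) lower with MESP1 and 2.43-fold (1.89 to 3.13) lower with HAND1. At day 2 PDGFA was already 2.85-fold (2.31 to 3.55) lower with MESP1, and in SOX2 cells its ratio was 1.45, not called. At day 1 the ratio in SOX2 cells was 1.02 (0.89 to 1.16).

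The 225 cells with a PDGFA UMI at day 3 had higher levels of 4 of 9 pluripotency genes and 4 of 8 amnion genes and lower levels of 5 of 8 nascent mesoderm genes, where 8% of 14739 genes were called higher and 3.51% lower. SOX2 stood at 31.1 against 5.36 CPM, NANOG at 24.9 against 9.12 CPM, and NODAL, a ligand of the streak list, at 87.1 against 25.4 CPM. NRP1, a co-receptor, stood at 51.6 against 106 CPM and was lower.

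PDGFRB, the receptor that marks pericytes and smooth muscle in later tissues, was found in few cells. It had 3.73, 4.55 and 8.98 CPM at days 1 to 3 and was found in 2.03%, 2.36% and 4.48% of thinned cells (15.3%, 7.12% and 15.4% unthinned). It was 1.97-fold (1.78 to 2.19) higher at day 3 than at day 2. Its day 2 over day 1 ratio of 1.22 was not called and fell below 1 with TMM scaling (0.97). In PDGFRA cells it stood at 11.6 against 8.68 CPM at day 3, a ratio of 1.34 (1.05 to 1.70) that was not called. Outside MESP1 cells it was called higher, at 1.72 (1.17 to 2.50). It was higher with HAND1 at day 3 (10.5 against 6.99 CPM, 1.51-fold, 1.15 to 2.00), where 5.4% of 14509 genes were called higher and 14.2% lower.

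Of the 6 measured genes of the mural list, genes of pericytes and smooth muscle, 1 was called higher in PDGFRB cells at day 3, ABCC9 (3.34 against 0.91 CPM), where 2.9% of 14871 genes were called higher and 1.61% lower. Another random draw gave ABCC9 a ratio of 0.76 (0.02 to 4.61). PDGFA was not called against PDGFRB on any day, with ratios of 0.93, 0.69 and 0.60. Without doublet removal it was called lower at day 2 (0.64), and another random draw gave 1.02 there. In PDGFRB cells 2.17%, 2.71% and 2.9% of genes were called higher and 1.08%, 1.14% and 1.61% lower. VEGFA stood at 14.7 against 6.93 CPM with and without PDGFRB at day 3, 2.12-fold (1.30 to 3.30) higher on 22 UMIs in 299 cells. That call did not hold: another random draw gave 0.89 (0.40 to 1.73) and 10000 UMIs per cell gave 0.90 (0.62 to 1.27).

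KDR had 20.01, 44.8 and 70.6 CPM at days 1, 2 and 3, from 3318, 5362 and 9717 UMIs. It was 2.24-fold (2.14 to 2.34) higher at day 2 than at day 1 and 1.58-fold (1.52 to 1.63) higher at day 3 than at day 2. The share of cells with a KDR UMI was 9.75%, 17.7% and 25.0% after thinning, 9.23%, 18.3% and 25.5% as a mean over all possible draws, and 47.1%, 41.9% and 57.7% unthinned. KDR was not at a single level in every cell at days 2 and 3. At day 3 a single level would give a UMI in 29.1% of thinned cells, above the 25.0% (24.0 to 26.0) found, and in 49.3% at 10000 UMIs per cell, where 40.6% were found. At 10000 UMIs, 2.41%, 9.26% and 15.1% of cells had at least 2 KDR UMIs at days 1, 2 and 3, where a single level would give 1.68%, 7.10% and 14.9%.

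KDR, in contrast to PDGFRA, was not called between cells with and without SOX2 or MESP1 at day 2. At day 2, 18.6% of cells with SOX2 and without MESP1 and 15.1% of cells with MESP1 and without SOX2 had a KDR UMI. At day 3 the shares were 28.7% (20.6 to 37.9) of only 115 cells and 24.3% (23.0 to 25.7) of 4188, with intervals that overlap. In CPM, KDR stood at 35.1 against 45.9 with and without MESP1 at day 2 and at 62.7 against 78.8 at day 3, and neither was called. The classes with only one of these markers still differed at day 2 beyond counting error, at 45.0 CPM (40.6 to 49.7) with SOX2 and without MESP1 and 35.5 CPM (30.9 to 40.5) with MESP1 and without SOX2. Whether free RNA in droplets contributes to the KDR UMIs in any class was not tested. At day 3 KDR was 2.61-fold (1.81 to 3.91) lower in SOX17 cells, at 26.9 against 70.1 CPM. In TFAP2A cells it stood at 33.8 against 69.9 CPM, 2.07-fold (1.495 to 2.94) lower, but another random draw gave a ratio of 0.78, which was not called. Among 14688 genes tested against SOX17, 10.5% were called higher and 7.12% lower. With HAND1 the KDR ratio was 0.78 at day 2 and 1.39 at day 3, neither called.

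**Figure D3:**
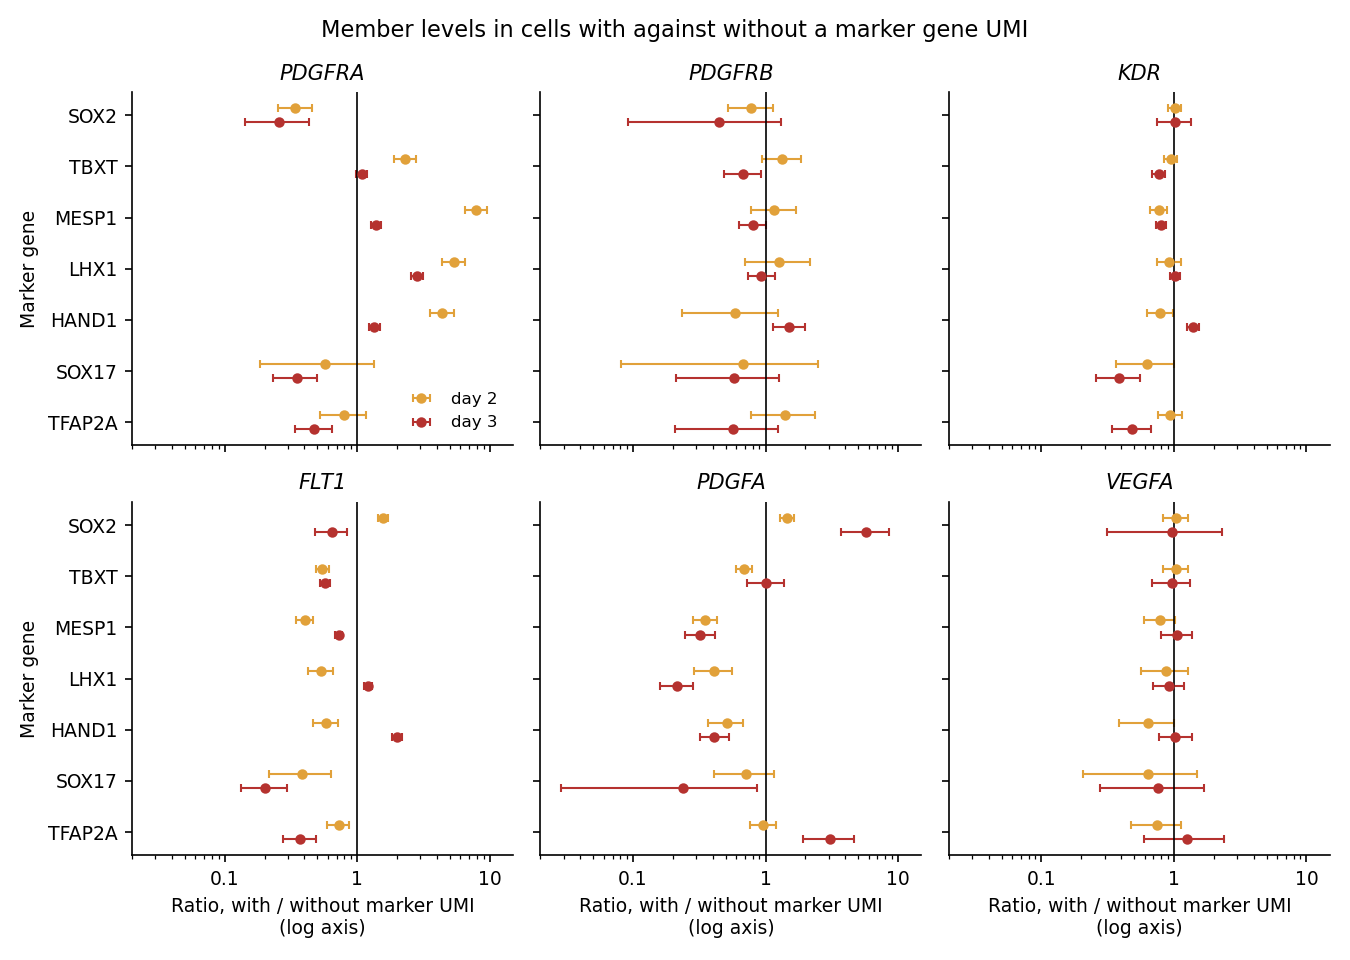
Ratio of each member's level in thinned cells with against without a UMI of 7 marker genes at day 2 (orange) and day 3 (red), on a log axis; bars are conditional exact 95% intervals and the line marks a ratio of 1. PDGFRA lies right of the line with MESP1 and LHX1 and left with SOX2, PDGFA mostly lies opposite to it, KDR and VEGFA stay near 1 with most markers, and FLT1 crosses the line between days with SOX2 and HAND1.

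FLT1 was lowest at day 2 and highest at day 3. It had 76.4, 59.8 and 119 CPM at days 1, 2 and 3. The day 2 over day 1 ratio of 0.78 was not called, although TMM and median-of-ratios scaling both put it at 0.625 and called it lower. It was 1.99-fold (1.93 to 2.05) higher at day 3 than at day 2. The share of thinned cells with a FLT1 UMI was 32.1%, 24.0% and 36.2% (85.3%, 50.7% and 67.9% unthinned).

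FLT1 was called in opposite directions with SOX2 and HAND1 on days 2 and 3, a difference that was not tested. At day 2 it was 1.57-fold (1.43 to 1.71) higher in SOX2 cells, at 85.2 against 54.3 CPM, and 2.50-fold (2.14 to 2.92) lower in MESP1 cells, at 28.4 against 70.9 CPM. It was also 1.73-fold lower with HAND1 and 1.83-fold lower with TBXT. At day 3 it was 1.56-fold (1.19 to 2.07) lower in SOX2 cells, at 78.0 against 121 CPM, and 2.00-fold (1.84 to 2.17) higher in HAND1 cells, at 141 against 70.6 CPM. It stayed lower with TBXT (1.75-fold), and it was 4.95-fold (3.40 to 7.52) lower in SOX17 cells and 2.69-fold (2.04 to 3.64) lower in TFAP2A cells. In the 122 cells with ETV2, a hemato-endothelial transcription factor, FLT1 stood at 187 against 119 CPM, 1.57-fold (1.29 to 1.89) higher, which another random draw put at 1.37 and did not call, where 2.32% of 14434 genes were called higher and 2.15% lower.

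FLT1 and KDR, the receptors that share VEGFA, were called together at day 3. FLT1 stood at 112 against 81.1 CPM in cells with and without KDR at day 1, 72.4 against 60.6 CPM at day 2 and 162 against 107 CPM at day 3. The ratios were 1.38 (1.18 to 1.61), 1.20 (1.07 to 1.33) and 1.52 (1.42 to 1.62), and each interval excluded 1. Only the last was called, where 1.49% of 14199 genes were called higher and 1.87% lower. That call sat at the edge: it was 1.49 at 10000 UMIs, 1.47 with another random draw and 1.42 within MESP1 cells. By the number of KDR UMIs at 10000 UMIs per cell, FLT1 stood at 97.9, 125, 150 and 220 CPM with 0, 1, 2 and at least 3 UMIs, with intervals that did not overlap. Over the same steps HAND1 stood at 428, 456, 523 and 602 CPM and MESP1 at 337, 330, 299 and 218 CPM.

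More lateral plate genes were called higher in FLT1 cells than in KDR cells at day 3, a difference between the classes that was not tested. In the 2414 FLT1 cells 5 of 8 measured genes of that list were called higher and none lower, with a median log2 ratio of 0.64 against 0.01 for all genes, where 3.4% of 14223 genes were called higher and 5.98% lower. HAND2, a heart and limb field factor, stood at 17.0 against 5.35 CPM (3.17-fold, 2.51 to 4.03), and TBX20, a heart field factor, at 31.9 against 13.7 CPM (2.33-fold, 1.99 to 2.72). In the 1668 KDR cells HAND2 (2.47-fold, 1.97 to 3.10) and TBX20 (1.72-fold, 1.47 to 2.02) were the 2 of 8 called higher, with a median log2 ratio of 0.24 for the list. Fewer genes of any kind were called in KDR cells, 1.49% of 14199 higher and 1.87% lower. Of the hemato-endothelial list, 5 of 8 measured genes were higher in FLT1 cells, ETV2, LMO2, TEK, FLI1 and ERG, at 2.07-fold, 1.69-fold, 2.27-fold, 1.86-fold and 2.87-fold, and TEK, FLI1 and ERG in KDR cells. Amnion genes were lower in both, 6 of 8 in each. At day 2 all 8 nascent mesoderm genes were lower in FLT1 cells, MESP1 at 42.7 against 94.5 CPM, where 3.98% of 14465 genes were called higher and 1.78% lower, and none was called in KDR cells, where 1.39% of 14564 genes were called higher and 0.611% lower.

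Several defining genes of endothelium and blood were nearly absent, and no endothelial cells were named. TAL1 had 4, 1 and 1 UMIs at days 1, 2 and 3, CDH5 had 7 in each library, CD34 had 20, 13 and 21, and PECAM1 had 36, 25 and 24. Of the 16 hemato-endothelial genes, 12, 11 and 9 were under 2 CPM, and their summed level was 66.6, 52.7 and 64.9 CPM. Most of that sum came from 3 genes, EGFL7, a secreted endothelial factor (32.0, 20.1 and 18.7 CPM), TEK, the angiopoietin receptor (14.1, 12.9 and 9.09 CPM), and FLI1, an ETS factor (7.55, 2.89 and 9.42 CPM). LMO2, a blood and endothelial cofactor, stood at 1.16, 3.04 and 9.09 CPM. Mural genes summed to 602, 244 and 239 CPM, of which TAGLN gave 544, 179 and 91.6 CPM and RGS5 21.1, 24.8 and 114 CPM. Endoderm genes summed to 3.94, 24.6 and 141 CPM. Of this GATA4, which is also in the lateral plate list, gave 0.95, 15.1 and 115 CPM, and SOX17 0.25, 6.04 and 13.6 CPM.

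Genes called higher in both VEGF receptor classes were long, a description added after the data had been seen. The genes called higher in FLT1 cells had a median genomic span of 123 kb at day 1, 112 kb at day 2 and 63.5 kb at day 3, against 36.9, 38.0 and 38.0 kb for all genes tested. In KDR cells the medians were 102, 61.3 and 53.9 kb. At day 1, 5.69% of 13784 genes were called higher and 0.704% lower with FLT1, and 4.64% of 14046 and 0.648% with KDR. In PDGFRA cells at days 2 and 3 the genes called higher had medians of 65.0 and 66.1 kb and those called lower 60.9 and 55.6 kb. The genes called lower in FLT1 cells had medians of 8.60, 22.3 and 43.6 kb. FLT1 itself spans 195 kb. The share of UMIs from ribosomal protein genes was 20.2% with and 22.7% without FLT1 at day 1, 16.8% and 18.8% at day 2, and 17.8% and 18.7% at day 3. Mitochondrial genes gave 5.55% with and 4.78% without FLT1 at day 1, 5.26% and 4.40% at day 2, and 3.89% and 3.69% at day 3. With and without KDR the mitochondrial share was 5.58% and 4.96% at day 1, 4.87% and 4.55% at day 2, and 3.88% and 3.73% at day 3. TEK, FLI1 and ERG span 121, 127 and 282 kb, while ETV2, HAND2 and FOXF1, also called higher in FLT1 cells at day 3, span 3.13, 5.26 and 4.90 kb. The part of this in the FLT1 and KDR results was not tested.

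**Figure D4:**
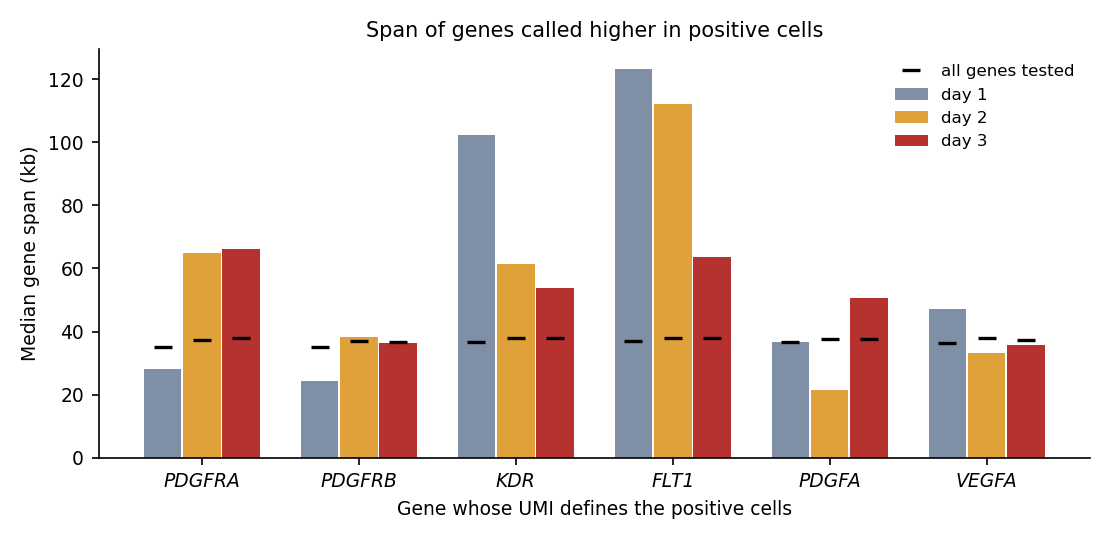
Median genomic span, in kb, of the genes called higher in cells with a UMI of each member, by day (bars, axis from 0), with black dashes for all genes tested. FLT1 cells stand at 123, 112 and 63.5 kb against 36.9 to 38.0 kb for all genes, and PDGFRB and VEGFA cells stay near or below the dashes except for VEGFA at day 1.

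VEGFA, the ligand of both KDR and FLT1, was not called with either receptor. It had 9.43, 12.1 and 7.67 CPM at days 1, 2 and 3, and 4.86%, 6.10% and 3.49% of thinned cells had a UMI (32.2%, 17.3% and 13.6% unthinned). It was 1.57-fold (1.45 to 1.70) lower at day 3 than at day 2, and the day 2 over day 1 ratio of 1.28 was not called. It was not called against KDR on any day: 7.62 against 10.0 CPM at day 1 (ratio 0.76, 0.40 to 1.34), 11.6 against 13.01 CPM at day 2 (0.89, 0.68 to 1.16) and 7.07 against 7.35 CPM at day 3 (0.96, 0.71 to 1.30). Against FLT1 the ratios were 1.26 (0.91 to 1.74), 1.19 (0.96 to 1.48) and 1.08 (0.82 to 1.40). Another random draw turned the day 1 ratio with FLT1 to 0.75 (0.52 to 1.07), below the interval given, which does not cover the draw. By KDR UMIs at day 3 VEGFA stood at 7.45, 7.35, 7.22 and 7.35 CPM. Among the marker genes, VEGFA was called once, 1.57-fold (1.01 to 2.61) lower with HAND1 at day 2, where 7.32% of 14855 genes were called higher and 7.49% lower, and another draw gave 0.80, not called.

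VEGFA is a textbook target of the hypoxia response, and a list of 15 such genes was read beside it. At day 3 over day 2, 4 of 13 measured genes were called higher and 1 lower, with a median log2 ratio of 0.03 against 0.01 for all genes. Of all 14668 genes tested in that comparison, 14.1% were called higher and 16.7% lower. EGLN3, an oxygen-sensing hydroxylase, had 41.4, 47.2 and 173 CPM and BNIP3 26.4, 46.2 and 101 CPM, while ADM, a vasoactive peptide, had 102, 21.7 and 2.79 CPM. In VEGFA cells none of the 13 measured hypoxia genes was called at day 3 and ALDOA alone was called at day 2, at 9.25 against 15.5 CPM, where 1.04% of 14462 genes were called higher and 1.07% lower. At days 1 and 3 the shares called in VEGFA cells were 2.36% and 1.85% higher and 0.716% and 1.01% lower.

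PDGFRA and KDR were detected together about as often as separate detection would give. Both were found in 0.20%, 1.14% and 7.22% of thinned cells at days 1, 2 and 3, where the product of their shares is 0.21%, 1.02% and 6.88%. The day 2 interval ran from 0.90% to 1.43% and the day 3 interval from 6.61% to 7.87%, each holding its product. PDGFRA alone was found in 2.00%, 4.66% and 20.3% of cells, KDR alone in 9.55%, 16.5% and 17.8%, and neither in 88.3%, 77.7% and 54.7%. KDR in PDGFRA cells had ratios of 0.98 (0.42 to 1.95), 1.09 (0.88 to 1.35) and 1.22 (1.11 to 1.33), none called. The day 3 interval excluded 1, but the ratio was below the 1.5-fold limit. Outside MESP1 cells at day 3 it was called at 1.59 (1.38 to 1.83), and within them the ratio was 1.07 (0.95 to 1.20). A cell without a UMI may still hold the transcript, so these are classes of detection.

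At day 2 cells with PDGFRA alone and cells with KDR alone differed in every mesoderm list read. There the 314 cells with PDGFRA alone had 141 CPM of LHX1 against 14.7 CPM in the 1114 with KDR alone, 9.56-fold (7.39 to 12.5) higher, with MESP1 6.01-fold, TBX6 6.62-fold and GATA6 6.23-fold higher. All 8 nascent mesoderm genes, all 6 measured lateral plate genes and 5 of 7 paraxial genes were higher in cells with PDGFRA alone, where 5.34% of 14772 genes were called higher and 6.12% lower. HAND1 counts in the first 2 of these lists, and MESP2 in the nascent mesoderm and paraxial lists. Cells with neither receptor were not part of this comparison. Between all cells with and without KDR at day 2, no gene of these lists was called. There 1.39% of 14564 genes were called higher and 0.611% lower. PDGFA stood at 15.3 against 37.7 CPM (2.47-fold lower), SOX2 at 35.0 against 84.4 CPM and FLT1 at 43.9 against 74.1 CPM (1.69-fold lower). Of the hypoblast and endoderm list 2 of 3 measured genes were also higher, with a median log2 ratio of 1.55. They include GATA4, which the lateral plate list also holds. Of the streak list 5 of 8 were higher. Of 9 pluripotency genes, 4 were lower with PDGFRA alone and none higher.

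At day 3, 2 of 7 measured paraxial genes were called higher in cells with PDGFRA alone and none lower. These were TBX6, a paraxial mesoderm factor, at 36.0 against 20.9 CPM (1.72-fold, 1.38 to 2.16), and MESP2 at 49.6 against 32.5 CPM (1.52-fold, 1.27 to 1.83). MESP2, a segmentation factor, is also in the nascent mesoderm list. LHX1 stood at 916 against 579 CPM, 1.58-fold (1.52 to 1.65) higher. HAND2 stood at 6.49 against 18.5 CPM (2.86-fold, 2.00 to 4.15 lower) and TBX20 at 13.3 against 30.9 CPM (2.32-fold, 1.80 to 3.02 lower). These 2 lateral plate genes were thus higher with KDR alone, whereas BMP5 of the same list was 1.52-fold (1.02 to 2.28) higher with PDGFRA alone. Of the 8 measured lateral plate genes no other was called. The median log2 ratio of that list was -0.03, against -0.003 for all genes. SOX2 stood at 1.33 against 10.5 CPM, and PDGFA at 3.84 against 8.77 CPM. Of all 14336 genes 2.53% were called higher and 4.18% lower. These classes were read from 1 random draw.

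**Figure D5:**
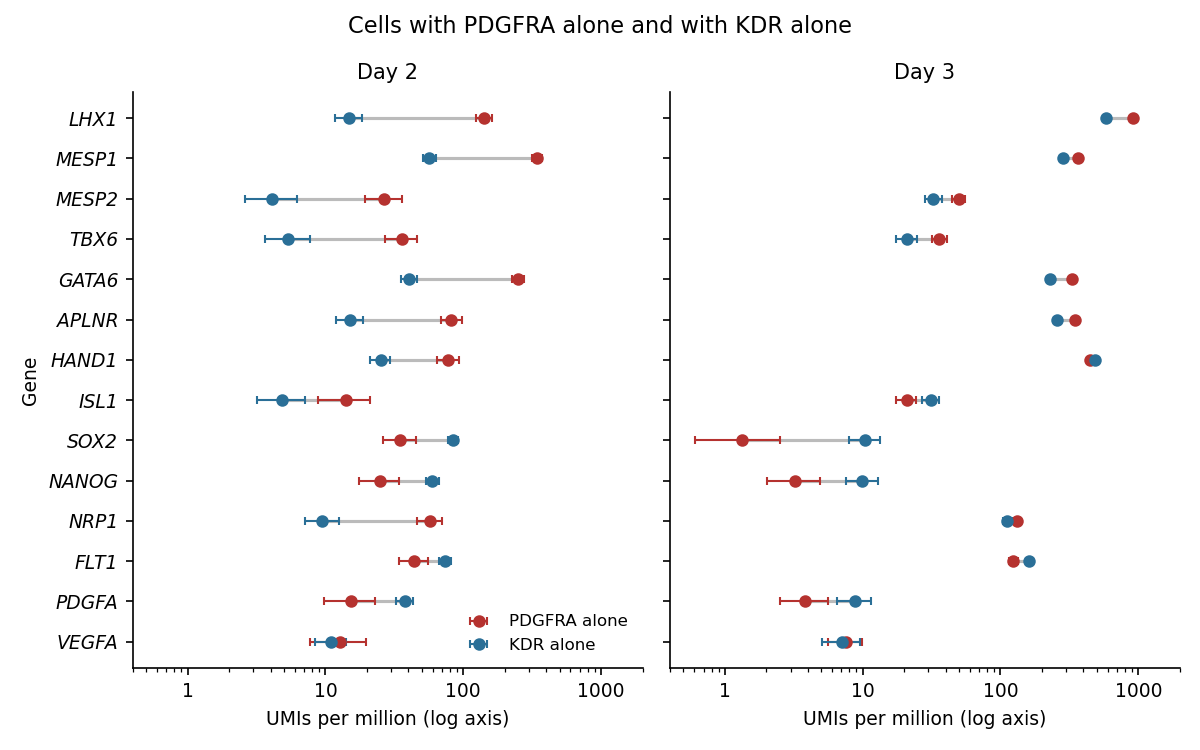
Levels of 14 genes in thinned cells with PDGFRA alone (red) and KDR alone (blue) at days 2 and 3, in CPM on a log axis; bars are exact Poisson 95% intervals and grey lines join the classes. At day 2 the mesoderm genes LHX1 to ISL1 lie higher with PDGFRA alone and SOX2 and NANOG lower; at day 3 the mesoderm genes lie closer together and PDGFA and SOX2 are still lower with PDGFRA alone.

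A list of 20 related ligands, receptors and co-receptors was read beside the members. At day 3 over day 1, 8 of its 14 measured genes were called higher and 1, SEMA3A, lower. Of all 14587 genes tested, 32.2% were called higher and 17.9% lower. The list's median log2 ratio was 0.93, against 0.25 for all genes. At day 3 over day 2, 8 of 14 were higher and 6 lower, where 14.1% of 14668 genes were called higher and 16.7% lower. The median log2 ratio of the list was then 0.68, against 0.01 for all genes. NRP1, the neuropilin that serves as co-receptor for VEGFA and semaphorins, had 2.21, 10.2 and 105 CPM at days 1, 2 and 3 and was 47.8-fold (43.1 to 53.1) higher at day 3 than at day 1. Its sister NRP2 had 50.4, 49.8 and 147 CPM. At day 2 NRP1 was higher in PDGFRA cells, at 53.7 against 9.13 CPM (5.88-fold, 4.66 to 7.38), and lower in FLT1 cells, at 6.91 against 13.2 CPM. At day 3 it was higher in both, at 138 against 91.7 CPM with PDGFRA (1.51-fold) and 144 against 82.3 CPM with FLT1 (1.74-fold).

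Among the other ligands, PGF, which binds FLT1 and not KDR, had 3.14, 4.69 and 23.9 CPM and was 7.62-fold (6.94 to 8.37) higher at day 3 than at day 1. PDGFC and PDGFD, PDGF ligands that need cleavage, peaked at day 2, at 10.6 and 18.4 CPM, and had 5.38 and 10.2 CPM at day 3. PDGFC, which also acts on PDGFRA, was 2.40-fold lower in PDGFRA cells at day 3, at 2.61 against 6.28 CPM. VEGFB, a ligand of FLT1, had 25.7, 16.1 and 26.2 CPM, and VEGFC, a ligand of KDR and FLT4, had 0.58, 1.16 and 2.06 CPM. VEGFC stood at 4.08 against 1.64 CPM in cells with and without KDR at day 3 (2.49-fold, 1.53 to 4.02). SEMA3A and SEMA3E, secreted semaphorins, had 102 and 56.4 CPM at day 2 and were 3.12-fold and 3.40-fold lower at day 3. KIT, between PDGFRA and KDR on chromosome 4, had 1.87, 5.19 and 3.00 CPM, and its ligand KITLG 6.37, 29.4 and 16.7 CPM. KIT was lower in KDR cells at day 3, at 0.72 against 3.24 CPM. PDGFB, FLT4, FLT3, CSF1R, VEGFD and PLVAP stayed under 2 CPM in every library.

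The genes most like each member were taken as those with the highest ratio in its cells, ranked by the least extreme of the 3 days among 8542 genes for PDGFRA. For PDGFRA they were CER1, a secreted NODAL, BMP and WNT antagonist, LZTS1, AC068051.1, ARHGAP31 and EPHA4, an ephrin receptor. CER1 stood at 260 against 37.7 CPM at day 2 (6.89-fold) and 185 against 86.8 CPM at day 3 (2.13-fold). The lowest were DMD, CLDN10, AC007326.5, TSPEAR and HPGD, with DMD at 41.6 against 201 CPM at day 3. CER1 was among the 5 lowest for KDR, at 86.9 against 123 CPM at day 3, a ratio of 0.71. For KDR the highest were ITPR1, FAM160B1, LRFN5, CTNND2 and RBM41, with day 3 ratios of 1.40 or less, below the call, and for FLT1 they included KCNN2, SYN3, CDK14 and AFF2, which span 441 to 744 kb. For PDGFA they were CAMK2N1, SGK1, ARV1, SYNJ2 and FAM102A, and the lowest included ROR2, a WNT5A receptor, at a day 3 ratio of 0.53. The day 1 intervals of most of these genes included 1: for PDGFRA all but AC068051.1, EPHA4 and CLDN10, and for PDGFA all but SYNJ2 and ROR2 among those named here. They also did for ITPR1, RBM41 and CER1 with KDR. With PDGFA the intervals of ARV1 and FAM102A included 1 at day 2 as well, and those of SGK1 and ARV1 at day 3. For PDGFRB and VEGFA, all 10 genes named by this rule for each had day 1 intervals that included 1, and they are not described further.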

How the data were processed

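UCLA1 cells were measured at days 1, 2 and 3, with 1 library per day, grouped by the time label. The authors deposited raw UMI counts per gene and cell, whole numbers with no normalisation. They were made with Cell Ranger 5.0.1 on hg38, per the submitters' processing notes. Kept cells had 1000 or more genes detected and no more than 20% of UMIs from mitochondrial genes. These limits removed 1212, 2688 and 599 barcodes. The automatic doublet threshold of scanpy 1.11.5 marked 3, 1 and 1 cells, so it had not worked, and the 144, 668 and 457 highest-scoring cells were removed, 0.8% per 1000 barcodes.

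UMIs were summed over kept cells for CPM, with exact Poisson intervals. Ratios have conditional exact binomial intervals. Cells were thinned to 5000 UMIs for shares and classes, which left out 34, 482 and 129 cells, and shares have exact binomial intervals. A positive cell had at least 1 UMI of the gene, and a class needed 50 cells. Medians over a list used genes with at least 2 CPM in either group. Ratios and thinning were checked on simulated counts. TMM factors came from edgeR 4.0.16. No differential test was made, since 1 library per group allows none.

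The members, lists and thresholds were chosen with earlier results of these data known. Named genes were the members, the pathway and hypoxia lists, marker genes where members were compared with them, and for each member the 5 genes with the highest and the 5 with the lowest ratio in its cells by the least extreme day, among genes that reached 10 CPM in the class where they were higher on each day. One gene that the rule names for FLT1 is not reported here. CDH1 was chosen after its values had been seen. TMM and median-of-ratios scaling, other call limits, depths, draws and filters, and restriction to cells with or without MESP1 were tried as alternatives.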

Additional observations from a re-analysis of the deposited data

Results flagged for a closer look

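Some ratios between cells with and without a gene's UMI lay on opposite sides of 1 on different days, with intervals that excluded 1 on both. The difference between days was not tested, since each day is 1 library. FLT1 accounted for most of them. Its ratio in HAND1 cells was 0.58 at day 2 and 2.00 at day 3, in LHX1 cells 0.53 and 1.20, in PDGFRA cells 0.70 and 1.16, in PDGFRB cells 0.58 and 1.16, and in SOX2 cells 1.57 and 0.64. PDGFRA in FLT1 cells gave 0.61 at day 2 and 1.28 at day 3. KDR in HAND1 cells gave 0.78 and 1.39. PDGFA in FLT1 cells gave 1.20 at day 2 and 0.74 at day 3. PDGFA in VEGFA cells gave 1.34 at day 1 and 0.33 at day 3, the latter on 3 UMIs. Another random draw gave 0.78 for that last value and 0.74 for FLT1 in PDGFRB cells at day 2, neither called.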

How the results depend on the processing

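Of 162 alternative values for the members' day ratios, 147 kept the call, or the absence of one, and of 168 for pairs of members 153 did. A ratio that was not called could cross 1 here if it stayed within its reported interval. With TMM scaling FLT1 stood at 0.625 for day 2 over day 1 and was then called lower, at 1.26 for day 3 over day 1 and no longer called, PDGFRB moved to 0.973 for day 2 over day 1 and VEGFA was called lower at 0.657 for day 3 over day 1. Median-of-ratios scaling gave 0.625, 1.29 and 0.973 for the first 3. Over all genes, calls for day 2 over day 1 numbered 3050 higher and 807 lower as reported, 1295 and 2428 with TMM and 1280 and 2428 with median of ratios, and for day 3 over day 1 4690 and 2610, 2944 and 4127, and 3098 and 3931. A call at 2-fold, which leaves the values as they are, lost FLT1 (1.56 and 1.99) and KDR (1.58) at day 3, PDGFA (0.631) at day 2, and PDGFRB (1.97) and VEGFA (0.636) for day 3 over day 2. A minimum of 10 CPM left out PDGFRB (1.97 and 2.40) and PDGFA in PDGFRA cells at day 3 (0.435). FLT1 in KDR cells at day 3 was no longer called at 10000 UMIs (1.49), with another random draw (1.47) or within MESP1 cells (1.42). PDGFA in PDGFRA cells at day 2 was not called within MESP1 cells (0.566) or outside them (0.720). Outside MESP1 cells at day 3, KDR (1.59) and PDGFRB (1.72) were called higher in PDGFRA cells. Another draw moved VEGFA in FLT1 cells at day 1 to 0.748, and no doublet removal called PDGFA lower in PDGFRB cells at day 2 (0.642). VEGFA in PDGFRB cells, tried after the data had been seen, reversed at day 3 with 10000 UMIs (0.900), another draw (0.893) and outside MESP1 cells (0.893), and at day 2 stood at 1.17 with 10000 UMIs and was called lower without doublet removal (0.365). Of 48 other called differences between cells, given another draw after the data had been seen, 36 kept their call, 9 lost it and 3 turned: PDGFRB in VEGFA cells (0.788), PDGFA in SOX17 cells (1.12) and ABCC9 in PDGFRB cells (0.762), each at day 3. Gene lists in classes and the classes with PDGFRA or KDR alone were read from 1 draw. Shares moved beyond their interval in 4 of 54 cases, and 8 of 36 list medians moved. The 24 alternatives that left fewer than 50 cells in a class were not run, among them all within MESP1 cells at day 1. For these shifts, other than the stricter call limits, the cause was not tested. At 5000 UMIs per cell an absent UMI does not show an absent transcript, and PDGFRB and VEGFA, found in at most 6.10% of cells, limit every comparison that uses them. No paired analysis was possible because each day is 1 library and no library shares a replicate with another.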
